A study of Oreochromis niloticus with 3 samples.

Results

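The middle of 3 salinities, 8 psu, is the subject here: the genes whose read count in the hepatopancreas of Nile tilapia (Oreochromis niloticus) at 8 psu lay at least 2-fold above, or at least 2-fold below, the counts at both 0 psu and 16 psu. Of 29605 genes listed, 16573 reached 10 counts in 1 or more of the libraries and are called the genes kept. Of these, 268 stood apart at 8 psu. The higher genes numbered 110, 0.664% of the genes kept. The lower genes numbered 158, 0.953% of the genes kept. The values of the 3 libraries themselves chose these genes, so their fold changes are given as a description, with no test.

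Healthy juvenile fish were reared in 3 tanks per salinity at 8 psu, 16 psu or 0 psu (freshwater). For the saline tanks the salinity was raised in steps of 4 psu per day. All fish started in freshwater, ate the same commercial diet and were fasted before sampling. Per salinity, hepatopancreas RNA of 8 fish was pooled, and its poly(A) fraction was sequenced as 1 single-end library on an Ion Proton instrument, so there is no replicate check at any salinity, and differences between fish, tanks or library preparations cannot be told apart from differences between salinities. The labels give 30 fish per tank and 5 weeks of rearing, which differs from the study's methods.

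The tilapia hepatopancreas holds hepatocytes with strands of exocrine pancreas between them. The organ makes plasma proteins, lipoproteins and lipid stores, and in fish that move into salt water it supplies fuel for ion transport by the gill and gut. A salinity near that of the blood plasma is called near-isosmotic, because water and salt then have little tendency to cross the body surface. Cortisol, acting through the glucocorticoid and mineralocorticoid receptors, is the main hormone of seawater acclimation in teleosts and the main stress hormone. Genes such as fkbp5, sgk1, ddit4, tsc22d3, klf9 and pdk4 are induced by glucocorticoids in mammals.

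The libraries held 13.6M counts at 8 psu, against 14.6M at 0 psu and 16.1M at 16 psu. Levels are in CPM, the count divided by the TMM-scaled library size and expressed per 1M counts. In that unit 1 count was worth 0.0716 CPM at 8 psu, against 0.0729 CPM at 0 psu and 0.0596 CPM at 16 psu. Fold changes are differences of log2(CPM + 0.5), and intervals are exact 95% intervals that cover counting error only, since reads without molecular identifiers are not independent molecules. The labels name hepatopancreas as the tissue and histiocytes of it as the cell type, and this was checked against marker lists. None of the 13 hepatocyte loci and none of the 7 exocrine pancreas loci stood apart at 8 psu. Their summed levels were 92396 CPM at 8 psu, against 87701 CPM at 0 psu and 93106 CPM at 16 psu for hepatocytes, and 17360 CPM at 8 psu, against 13538 CPM at 0 psu and 17266 CPM at 16 psu for exocrine pancreas. Single loci carried much of these sums. hpxa gave 49138 CPM at 8 psu, against 39037 CPM at 0 psu and 43087 CPM at 16 psu. prss1 gave 9486 CPM at 8 psu, against 6383 CPM at 0 psu and 9117 CPM at 16 psu. By any amount 4 hepatocyte loci were above both outer libraries and 3 below both. For exocrine pancreas 4 were above both and 0 below both. The 17 leukocyte loci summed to 1128 CPM at 8 psu, against 1143 CPM at 0 psu and 1004 CPM at 16 psu, of which cd74a and cd74b gave most. The other 15 summed to 158 CPM at 8 psu, against 129.9 CPM at 0 psu and 172 CPM at 16 psu. Hepatocyte and exocrine pancreas markers thus far outweighed leukocyte markers in all 3 libraries, so the RNA was not from histiocytes alone. Because the RNA was bulk tissue, fewer cells of a type and less RNA per cell cannot be told apart.

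The 8 psu library had the fewest genes apart. By the same rule 409 genes stood apart at 16 psu, 309 above (1.86%) and 100 below (0.603%) both other libraries, and 781 at 0 psu, 473 above (2.85%) and 308 below (1.86%). Thus 8 psu accounted for 18.4% of the 1458 genes that stood apart in 1 library, a share that ran between 8.75% and 26.0% over the alternative settings. The directions also differed: 41.0% of the genes apart at 8 psu were above the other libraries, compared with 75.6% at 16 psu and 60.6% at 0 psu. Among the genes kept, of those with at least 100 counts in 1 library, the 8 psu library was above both others for 14 genes and below both for 73, while the 16 psu library was above for 109 and below for 36, and the 0 psu library was above for 222 and below for 107. Against a single other library 8 psu was at least 2-fold higher for 733 genes (4.42%) and lower for 897 (5.41%) when set against 0 psu, and higher for 355 (2.14%) and lower for 586 (3.54%) when set against 16 psu. These comparisons share the 8 psu library.

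**Figure D1:**
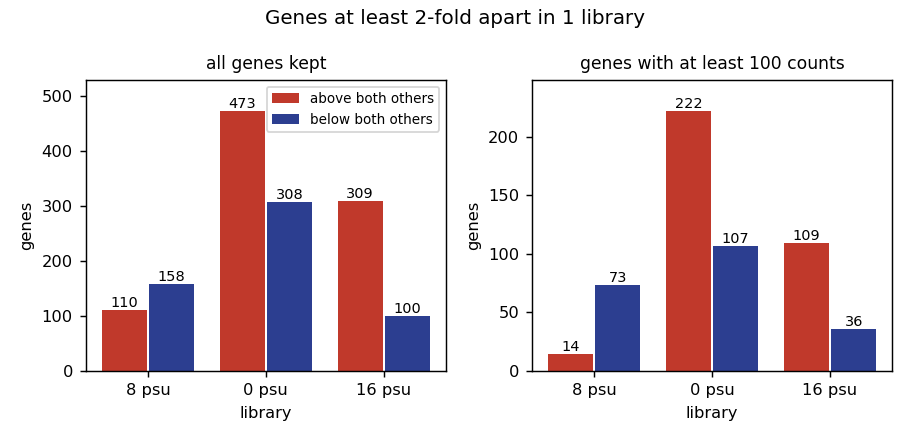
Number of genes (vertical axis) whose count in 1 library lay at least 2-fold above (red bars) or below (blue bars) both other libraries, for the 8, 0 and 16 psu libraries, over all genes kept (left) and over genes with at least 100 counts in 1 library (right). The 8 psu library has the smallest total, 268, and among well counted genes 14 of its 87 genes are higher.

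The genes higher at 8 psu were mostly of low count and the lower genes were better counted. The median of each gene's highest count was 34.5 for the higher and 79.5 for the lower genes, both below the 100 of all genes kept. The median count of the 110 higher genes was 34.5 at 8 psu, against 5 at 0 psu and 9.5 at 16 psu, and 39 of them had a gene symbol. Of the 7061 genes with at least 100 counts at 8 psu, 14 (0.198%) were higher than at both other salinities. The median count of the 158 lower genes was 10 at 8 psu, against 51 at 0 psu and 66.5 at 16 psu, and 101 of them had a symbol. Of the 6679 genes with at least 100 counts at both 0 and 16 psu, 46 (0.689%) were lower at 8 psu than at both. The counting interval of the fold change lay wholly beyond 2-fold against both libraries in 28 higher and 57 lower genes. A fold change past 4 against both was found in 7 higher and 7 lower genes. The number of genes rests on how low counts are treated: without a pseudocount 341 were higher and 506 lower, and with 2 CPM added 19 were higher and 43 lower.

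Between the outer salinities, 86.4% of the higher and 63.3% of the lower genes lay within 1.5-fold, beside 69.8% of all genes kept. For the higher genes a small outer difference was partly fixed in advance. The rule picked genes with low outer counts, at medians of 5 at 0 psu and 9.5 at 16 psu. At such counts the pseudocount draws the outer levels together. The share of all genes was not matched for count, so the 86.4% does not show that the outer salinities agreed. The share of all genes beyond 2-fold was not computed. Of the 110 higher genes 4 differed beyond 2-fold, 3 of them higher at 16 psu and 1 higher at 0 psu. Of the 158 lower genes 36 differed beyond 2-fold, 21 of them higher at 16 psu and 15 higher at 0 psu. All 8 skeletal muscle genes described later are among those 21.

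**Figure D2:**
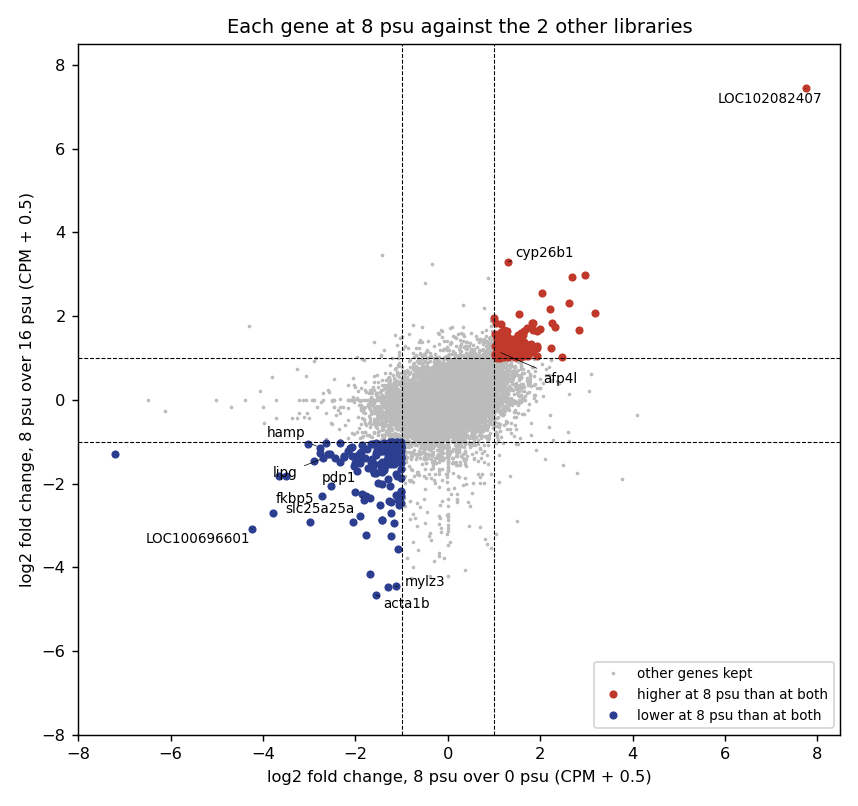
Each of the 16573 genes kept by its log2 fold change (CPM + 0.5) at 8 psu over 0 psu (horizontal axis) and over 16 psu (vertical axis), with dashed lines at the 2-fold limits. Red points are the 110 genes higher at 8 psu than at both, blue points the 158 lower genes and grey points all others, and LOC102082407 lies alone at the upper right (7.75 over 0 psu and 7.44 over 16 psu).

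fkbp5, which encodes a co-chaperone of the glucocorticoid receptor, was the well counted named gene lowest at 8 psu by the smaller of its 2 fold changes. Its level was 11.6 CPM at 8 psu, against 80.0 CPM at 0 psu and 59.3 CPM at 16 psu, from 162 counts at 8 psu against 1097 at 0 psu and 994 at 16 psu. The log2 fold changes were -2.73 over 0 psu and -2.30 over 16 psu, with counting intervals of -3.03 to -2.55 over 0 psu and -2.60 to -2.11 over 16 psu. The outer salinities lay on one side and 8 psu alone on the other.

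The other glucocorticoid-responsive genes were mixed. Of 19 loci of that list, 3 (15.8%) were at least 2-fold lower at 8 psu than at both others, beside 0.953% of all genes, and none was higher. The second was ddit4, an inhibitor of the growth kinase complex mTORC1, with 275 counts at 8 psu, against 598 at 0 psu and 1625 at 16 psu (log2 fold changes -1.13 over 0 psu and -2.27 over 16 psu). The third was sgk1, a kinase that raises the activity of ion channels and transporters, with 1081 counts at 8 psu, against 2158 at 0 psu and 3697 at 16 psu. Its log2 fold change of -1.02 against 0 psu lay at the limit, and with scaling to total counts it was -0.89, so that sgk1 no longer counted as apart. By any amount, 11 of the 19 loci were below both outer libraries, compared with 30.7% of all genes. Without a pseudocount 5 loci met the rule. The median log2 fold change of the list was -0.76 over 0 psu and -0.34 over 16 psu, while the medians over all genes were at 0 over both.

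Other members of the same list differed in pattern. They were chosen after their values were seen. tsc22d3, the leucine zipper protein GILZ, had 7686 counts at 8 psu, against 3766 at 0 psu and 8169 at 16 psu, which put 8 psu beside 16 psu. klf9 had 154 counts at 8 psu, against 493 at 0 psu and 237 at 16 psu, also close to 16 psu. pdk4, an inhibitor of pyruvate dehydrogenase, had 5048 counts at 8 psu, against 4111 at 0 psu and 4647 at 16 psu and was highest at 8 psu, by less than 2-fold. dusp1, a phosphatase of MAP kinases, and cebpd, a transcription factor, lay like fkbp5 below both others, by less, with 126 counts at 8 psu, against 302 at 0 psu and 293 at 16 psu for dusp1, and 1073 counts at 8 psu, against 1789 at 0 psu and 2583 at 16 psu for cebpd. igfbp1a and pck1 were low at 8 and at 0 psu, with 10 counts at 8 psu, against 22 at 0 psu and 382 at 16 psu for igfbp1a.

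**Figure D3:**
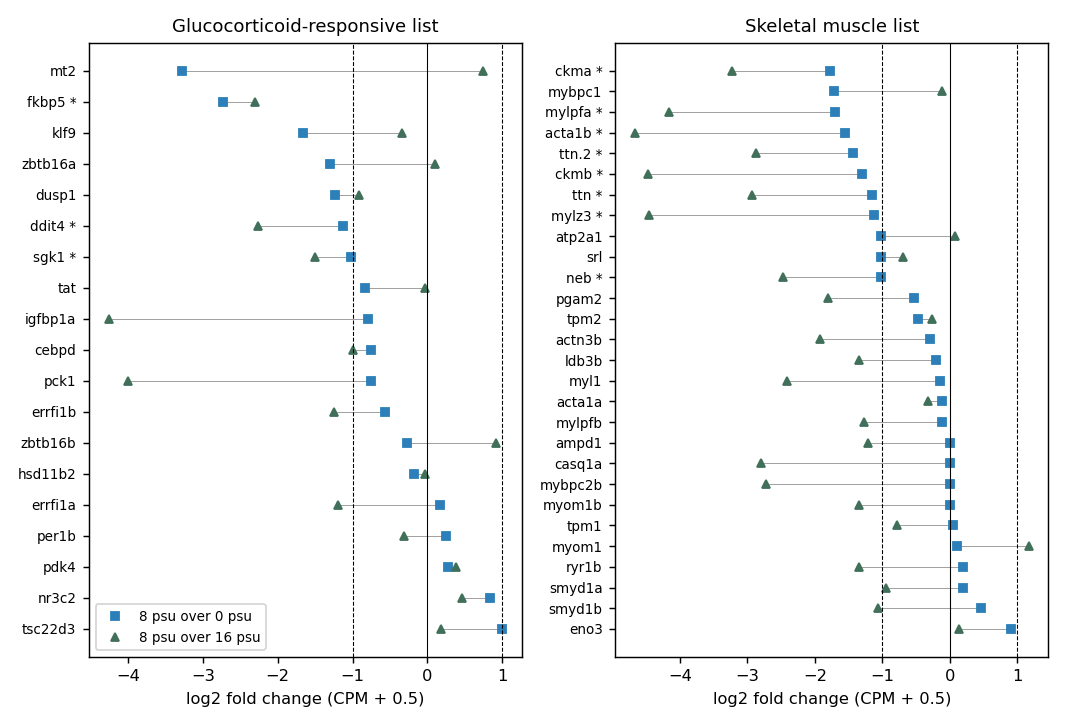
Log2 fold change (CPM + 0.5) of each locus of the glucocorticoid-responsive list (left) and the skeletal muscle list (right), with squares for 8 psu over 0 psu and triangles for 8 psu over 16 psu, dashed lines at the 2-fold limits and asterisks on loci lower at 8 psu than at both. The squares and triangles of fkbp5 sit together far below 0 (-2.73 and -2.30), whereas those of the 8 muscle loci with asterisks lie far apart from each other.

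Regulators of hepatocyte genes and of the circadian clock came next. cebpa, klf13 and cipcb were chosen after their values were seen. cebpa, a master regulator of hepatocyte and adipocyte genes, had 629 counts at 8 psu, against 1449 at 0 psu and 1736 at 16 psu, with log2 fold changes of -1.22 over 0 psu and -1.19 over 16 psu. klf13, a zinc finger transcription factor, had 134 counts at 8 psu, against 307 at 0 psu and 370 at 16 psu. cipcb, which encodes an inhibitor of the CLOCK protein, had 67 counts at 8 psu, against 157 at 0 psu and 198 at 16 psu. In each of the 3 genes the outer libraries were nearly equal after scaling, for cebpa 106 CPM at 0 psu and 104 CPM at 16 psu. From the circadian list, 2 of 28 loci were lower, ciarta and clocka, beside 0.953% of all genes. With total counts 1 locus met the rule, and with 2 CPM added 0 did. ciarta, a repressor in the clock feedback loop, had 235 counts at 8 psu, against 487 at 0 psu and 631 at 16 psu. Its paralog ciartb lay on the same side with smaller differences, 272 counts at 8 psu, against 379 at 0 psu and 479 at 16 psu. clocka had 1 count at 8 psu, against 14 at 0 psu and 13 at 16 psu, too few to size the change (counting interval of the log2 fold -9.24 to -1.12 over 0 psu and -8.85 to -0.70 over 16 psu), and it overlaps tmem165 in the gene table. The core genes per2, cry1a and nr1d1 showed no such pattern. nr1d1 had 344 counts at 8 psu, against 220 at 0 psu and 382 at 16 psu.

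**Figure D4:**
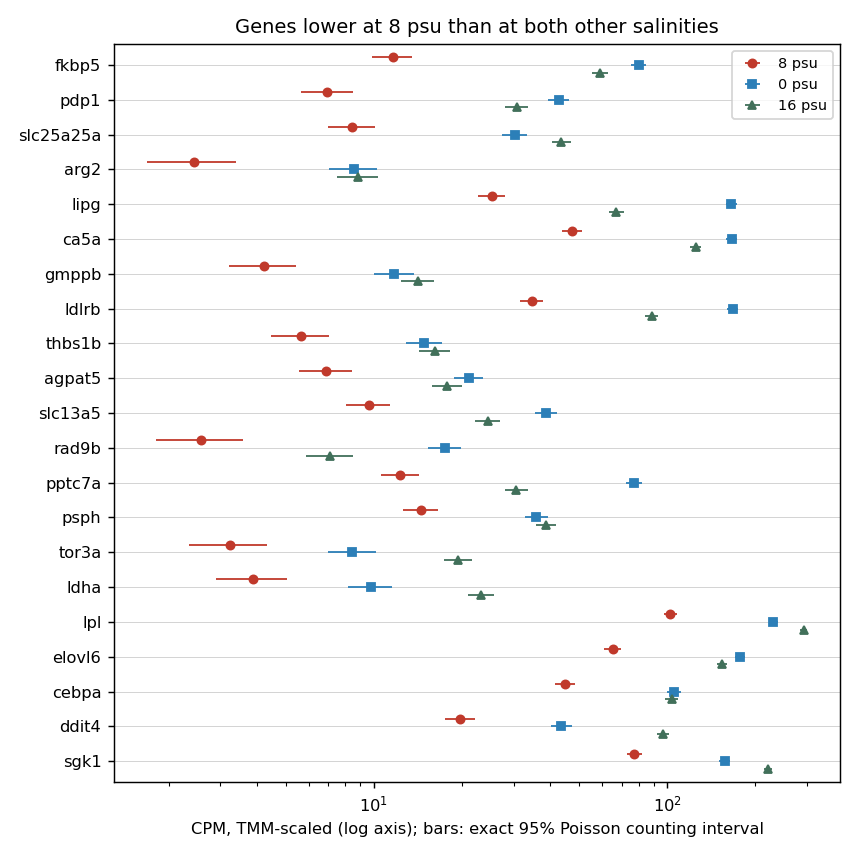
Level in CPM (log axis) at 8 psu (red circles), 0 psu (blue squares) and 16 psu (green triangles) of 21 genes lower at 8 psu than at both, with bars for the exact 95% Poisson counting interval. The 8 psu circle lies left of the other symbols in each row, and in fkbp5, pdp1 and ca5a both others lie close together.

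Genes of lipoprotein uptake and fatty acid building formed the next group. lipg, endothelial lipase, stood at 25.2 CPM at 8 psu, against 166 CPM at 0 psu and 67.2 CPM at 16 psu (log2 fold changes -2.69 over 0 psu and -1.40 over 16 psu). lpl, lipoprotein lipase, stood at 103 CPM at 8 psu, against 229.8 CPM at 0 psu and 293 CPM at 16 psu (log2 fold changes -1.16 over 0 psu and -1.51 over 16 psu). Its relative lpl2a had 15 counts at 8 psu, against 72 at 0 psu and 118 at 16 psu. The hepatic lipase lipc, by contrast, differed little: 21552 counts at 8 psu against 24640 at 0 psu and 28751 at 16 psu. All of these lipases had their lowest count at 8 psu, 3 of them at least 2-fold below both others and lipc within 2-fold. Those 3 were named because they met the rule, so the split says nothing about lipases made by the liver.

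ldlrb, a receptor that takes up low density lipoprotein, had 483 counts at 8 psu, against 2294 at 0 psu and 1486 at 16 psu, with log2 fold changes of -2.26 over 0 psu and -1.35 over 16 psu. The paralog ldlra had 3683 counts at 8 psu, against 3986 at 0 psu and 5446 at 16 psu, differences of less than 1.5-fold. No other of the 24 loci of the cholesterol synthesis list stood apart, so 4.17% were lower, beside 0.953% of all genes. By any amount none of the 24 was above both outer libraries and 8 (33.3%) were below both, each beside 30.7% of all genes. The list's medians were 0.19 over 0 psu and -0.46 over 16 psu, which put 8 psu between the outer libraries. elovl6, which lengthens palmitate, stood at 65.2 CPM at 8 psu, against 178 CPM at 0 psu and 154 CPM at 16 psu, and its relative elovl5 had 884 counts at 8 psu, against 1607 at 0 psu and 1353 at 16 psu. agpat5, an acyltransferase of phospholipid and triglyceride synthesis, had 96 counts at 8 psu, against 289 at 0 psu and 298 at 16 psu. ptdss2, phosphatidylserine synthase, had 184 counts at 8 psu, against 465 at 0 psu and 482 at 16 psu. mid1ip1a, a cofactor of acetyl-CoA carboxylase, had 72 counts at 8 psu, against 163 at 0 psu and 317 at 16 psu, and its paralog mid1ip1l, just short of the limit against 16 psu, had 114 counts at 8 psu, against 526 at 0 psu and 265 at 16 psu. lpl2a, ptdss2, mid1ip1a and the paralogs were chosen after their values were seen.

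The lipid synthesis list as a whole mostly separated 0 psu from the salt water libraries rather than 8 psu from both. Of 38 loci 2, lpl and elovl6, were lower at 8 psu than at both, beside 0.953% of all genes. At least 2-fold lower at 8 than at 0 psu were 17 loci, beside 5.41% of all genes, and 0 were at least 2-fold higher, beside 4.42%. At least 2-fold lower at 8 than at 16 psu were 3, beside 3.54% of all genes, and 4 were at least 2-fold higher, beside 2.14%. Its medians were -0.86 over 0 psu and -0.13 over 16 psu. By any amount 22 of 38 loci (57.9%) lay below both, compared with 30.7% of all genes. Among them acaca, acetyl-CoA carboxylase, had 2368 counts at 8 psu, against 6253 at 0 psu and 3818 at 16 psu. scd, stearoyl-CoA desaturase, was not among them, with 167120 counts at 8 psu, against 232694 at 0 psu and 172372 at 16 psu. After scaling to library size its level at 8 psu lay between the outer libraries.

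Genes of mitochondrial and fuel metabolism were also among the well counted lower genes. pdp1, the phosphatase that switches pyruvate dehydrogenase on, stood at 6.94 CPM at 8 psu, against 42.8 CPM at 0 psu and 30.7 CPM at 16 psu, with log2 fold changes of -2.54 over 0 psu and -2.07 over 16 psu and counting intervals of -2.95 to -2.31 over 0 psu and -2.47 to -1.83 over 16 psu. pdp2, which does the same task, had 51 counts at 8 psu, against 38 at 0 psu and 67 at 16 psu and was not lower. slc25a25a, a mitochondrial carrier of ATP-magnesium and phosphate, had 118 counts at 8 psu, against 414 at 0 psu and 731 at 16 psu. ca5a, the mitochondrial carbonic anhydrase that supplies bicarbonate to gluconeogenesis and urea synthesis, stood at 47.5 CPM at 8 psu, against 166 CPM at 0 psu and 125 CPM at 16 psu. slc13a5, which imports citrate into hepatocytes, had 134 counts at 8 psu, against 529 at 0 psu and 411 at 16 psu. ldha, lactate dehydrogenase, had 54 counts at 8 psu, against 134 at 0 psu and 390 at 16 psu. Its better counted relative ldhba had 1408 counts at 8 psu, against 1174 at 0 psu and 1607 at 16 psu. After scaling ldhba was not lower at 8 psu. ldha was the single locus of 35 (2.86%) on the glucose metabolism list that stood apart, beside 0.953% of all genes lower. In these genes, pdp2 and ldhba aside, 8 psu was lowest. The order of the outer libraries varied, with slc13a5 higher at 0 psu and slc25a25a and ldha higher at 16 psu.

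pptc7a, a mitochondrial matrix phosphatase, had 172 counts at 8 psu, against 1060 at 0 psu and 514 at 16 psu, and rad9b, a DNA damage checkpoint gene, had 36 counts at 8 psu, against 239 at 0 psu and 119 at 16 psu. These are neighbours whose spans overlap in the RefSeq gene table. rad9b held 20.9% as many counts as pptc7a at 8 psu, 22.5% at 0 psu and 23.2% at 16 psu. The handling of strand and of reads in overlapping genes is not given in the sources used here, so the 2 genes count as 1 uncertain observation. The paralog rad9a had 30 counts at 8 psu, against 34 at 0 psu and 44 at 16 psu.

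From the amino acid list 3 of 42 loci were lower at 8 psu than at both, beside 0.953% of all genes, and none was higher, beside 0.664% of all genes. psph, which performs the last step of serine synthesis, had 202 counts at 8 psu, against 491 at 0 psu and 647 at 16 psu (log2 fold changes -1.28 over 0 psu and -1.39 over 16 psu). arg2, the mitochondrial arginase, had 34 counts at 8 psu, against 117 at 0 psu and 148 at 16 psu (log2 fold changes -1.62 over 0 psu and -1.67 over 16 psu). prodha, which opens proline degradation, had 13 counts at 8 psu, against 56 at 0 psu and 114 at 16 psu. For psph the level was 14.5 CPM at 8 psu, against 35.8 CPM at 0 psu and 38.6 CPM at 16 psu, so that the outer libraries nearly coincided.

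Further named genes that were lower came from separate functions. hamp, hepcidin, the hormone that limits iron export, had 31 counts at 8 psu, against 248 at 0 psu and 92 at 16 psu. Beside it, cybrd1, a ferric reductase chosen after its values were seen, was among the higher genes with 74 counts at 8 psu, against 17 at 0 psu and 39 at 16 psu. gmppb, which makes GDP-mannose for glycosylation, had 59 counts at 8 psu, against 161 at 0 psu and 237 at 16 psu. thbs1b, a thrombospondin of the extracellular matrix, had 79 counts at 8 psu, against 204 at 0 psu and 271 at 16 psu, while thbs1a had 118 counts at 8 psu, against 151 at 0 psu and 122 at 16 psu. tor3a, a torsin ATPase of the endoplasmic reticulum, had 45 counts at 8 psu, against 116 at 0 psu and 325 at 16 psu. Of the genes without a symbol the best counted was LOC100706937, chosen after its values were seen, with 15194 counts at 8 psu, against 45643 at 0 psu and 37928 at 16 psu.

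Skeletal muscle genes were the largest single group on the lists, and their pattern was of another kind. Of 28 muscle loci 8 (28.6%) were lower at 8 psu than at both, beside 0.953% of all genes: acta1b, ckma, ckmb, mylpfa, mylz3, ttn, ttn.2 and neb. acta1b, skeletal actin, had 17 counts at 8 psu, against 62 at 0 psu and 724 at 16 psu. ckmb, a muscle creatine kinase, had 7 counts at 8 psu, against 27 at 0 psu and 364 at 16 psu. mylz3, a myosin light chain, had 6 counts at 8 psu, against 21 at 0 psu and 334 at 16 psu. neb, nebulin, had 0 counts at 8 psu, against 7 at 0 psu and 38 at 16 psu. With 0 replaced by 3 counts it was 2.38-fold lower than at 0 psu and 10.6-fold lower than at 16 psu. These ratios leave out the counting error of the other library. The counting interval of the log2 fold change reached up to -0.55 over 0 psu and -3.03 over 16 psu. The difference between the outer libraries exceeded 2-fold in all 8. With 2 CPM added in place of 0.5, 2 of the 28 loci met the rule.

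Summed over the muscle list without eno3, which liver also expresses, the level was 28.2 CPM at 8 psu, against 44.8 CPM at 0 psu and 181 CPM at 16 psu. The 8 lower loci summed to 3.79 CPM at 8 psu, against 17.5 CPM at 0 psu and 126 CPM at 16 psu. The other 19 summed to 24.4 CPM at 8 psu, against 27.3 CPM at 0 psu and 55.0 CPM at 16 psu. Of the 28 loci 7 had 0 counts at 8 psu, 6 at 0 psu and none at 16 psu. Also lower, and chosen after their values were seen, were sgcg, a sarcoglycan (3 counts at 8 psu, against 13 at 0 psu and 46 at 16 psu), and pygma, muscle glycogen phosphorylase (0 counts at 8 psu, against 7 at 0 psu and 30 at 16 psu). The part of muscle tissue in these differences was not tested. Without the loci on marker lists of other tissues, 150 genes were lower and 110 higher at 8 psu.

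Some genes of epithelial surfaces were also among the lower genes. They come from no list and were chosen after their values were seen. fcgbp, a mucus protein gene, had 0 counts at 8 psu, against 80 at 0 psu and 21 at 16 psu, at least 27.2-fold lower than at 0 psu and at least 5.83-fold lower than at 16 psu. abca12, a lipid transporter of skin epithelium, had 0 counts at 8 psu, against 71 at 0 psu and 21 at 16 psu. ppl, periplakin, had 1 count at 8 psu, against 24 at 0 psu and 23 at 16 psu. pls1, an actin bundling protein of microvilli, had 14 counts at 8 psu, against 134 at 0 psu and 52 at 16 psu. Enterocyte markers are given beside them. The summed level of 10 enterocyte loci was 198 CPM at 8 psu, against 1269 CPM at 0 psu and 179 CPM at 16 psu. The markers fabp2 and slc15a1b had 0 counts at 8 and at 16 psu, against 23 each at 0 psu. Other markers of the list went the other way and were lowest at 0 psu. anpepa had 24 counts at 8 psu, against 15 at 0 psu and 24 at 16 psu, and mep1bb had 31 at 8 psu, against 19 at 0 psu and 41 at 16 psu. apoa4b alone gave 191 CPM at 8 psu, against 1248 CPM at 0 psu and 171 CPM at 16 psu, and the other 9 loci summed to 6.73 CPM at 8 psu, against 21.2 CPM at 0 psu and 7.40 CPM at 16 psu. None of the 10 loci stood apart at 8 psu, and the part of gut or skin tissue in the values was not tested.

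Among the higher genes the best counted was afp4l, which encodes an antifreeze-like protein of the apolipoprotein family made by fish liver. It stood at 11454 CPM at 8 psu, against 5435 CPM at 0 psu and 5124 CPM at 16 psu, from 159979 counts at 8 psu against 74541 at 0 psu and 85922 at 16 psu. The log2 fold changes were 1.08 over 0 psu and 1.16 over 16 psu, and the outer libraries nearly coincided. Another apolipoprotein gene, apoea, had 132 counts at 8 psu, against 52 at 0 psu and 61 at 16 psu (log2 fold changes 1.21 over 0 psu and 1.27 over 16 psu). Its paralog apoeb went the other way, with 31034 counts at 8 psu, against 53340 at 0 psu and 117018 at 16 psu, lowest at 8 psu (log2 fold changes -0.81 over 0 psu and -1.65 over 16 psu).

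**Figure D5:**
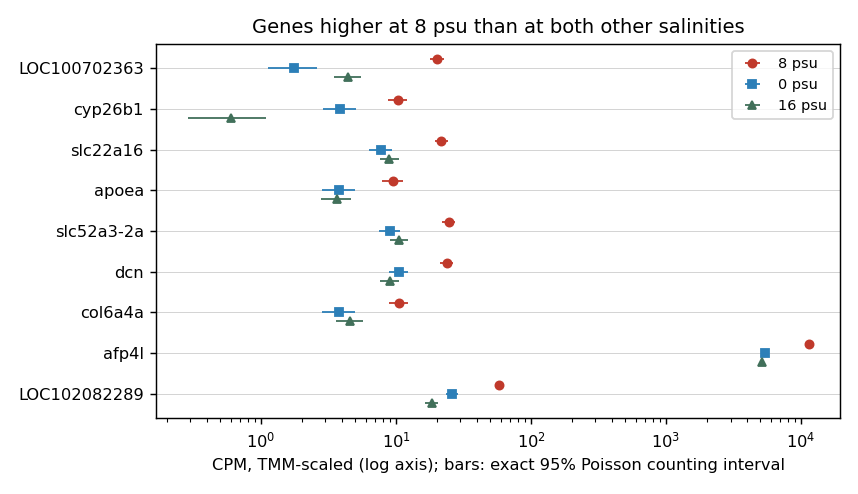
Level in CPM (log axis) at 8 psu (red circles), 0 psu (blue squares) and 16 psu (green triangles) of 9 genes higher at 8 psu than at both, with bars for the exact 95% Poisson counting interval. The 8 psu circle lies right of both other symbols in each row, and the outer salinities lie close together except in LOC100702363 and cyp26b1.

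Genes of the extracellular matrix were among the higher genes, while the matrix gene thbs1b, given above, was among the lower ones. dcn, decorin, a proteoglycan that binds collagen fibrils, stood at 23.8 CPM at 8 psu, against 10.5 CPM at 0 psu and 9.01 CPM at 16 psu (log2 fold changes 1.15 over 0 psu and 1.36 over 16 psu). col6a4a, a chain of the collagen VI family, had 146 counts at 8 psu, against 52 at 0 psu and 77 at 16 psu. col12a1a had 28 counts at 8 psu, against 4 at 0 psu and 12 at 16 psu, and the locus col12a1 had 20 counts at 8 psu, against 60 at 0 psu and 15 at 16 psu. Of 44 loci of the matrix list 2 (4.55%), dcn and col12a1a, were at least 2-fold higher at 8 psu than at both, beside 0.664% of all genes. With 2 CPM added 1 of the 44 met the rule. By any amount 21 of 44 (47.7%) were above both outer libraries, compared with 30.7% of all genes, and 9 (20.5%) were below both, also compared with 30.7%. Against 0 psu alone 5 loci were at least 2-fold lower at 8 psu, beside 5.41% of all genes, and 3 were higher, beside 4.42%. Against 16 psu alone 3 were lower, beside 3.54% of all genes, and 3 were higher, beside 2.14%. The list's medians were 0.21 over 0 psu and 0.27 over 16 psu.

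The type I collagen chains of the list were higher at 8 psu by less than the rule asks against at least 1 outer library. col1a1 stood at 108 CPM at 8 psu, against 55.7 CPM at 0 psu and 58.0 CPM at 16 psu (log2 fold changes 0.94 over 0 psu and 0.89 over 16 psu). col1a2 had 1745 counts at 8 psu, against 1058 at 0 psu and 1056 at 16 psu (log2 fold changes 0.69 over 0 psu and 0.98 over 16 psu). col1a1b had 1528 counts at 8 psu, against 971 at 0 psu and 915 at 16 psu (log2 fold changes 0.62 over 0 psu and 1.00 over 16 psu). The collagen VI chains had smaller differences in the same direction, with 691 counts at 8 psu, against 409 at 0 psu and 468 at 16 psu for col6a2 and 851 counts at 8 psu, against 627 at 0 psu and 673 at 16 psu for col6a1. These collagens were chosen after their values were seen. cpz, a carboxypeptidase of the extracellular matrix, had 236 counts at 8 psu, against 89 at 0 psu and 140 at 16 psu. Among genes with at least 100 counts at 8 psu it was the nearest outside the limit on the higher side. The matrix genes mmp9 and mmp13a, by contrast, were low at 8 and at 0 psu, with 15 counts at 8 psu, against 16 at 0 psu and 353 at 16 psu for mmp9. ecm1a was higher at 8 psu from few counts, 36 counts at 8 psu, against 0 at 0 psu and 2 at 16 psu, and the paralog ecm1b had 3281 counts at 8 psu, against 1477 at 0 psu and 2714 at 16 psu.

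Further named higher genes were an enzyme, 2 carriers and a ligand. cyp26b1, a cytochrome P450 that degrades retinoic acid, stood at 10.3 CPM at 8 psu, against 3.86 CPM at 0 psu and 0.60 CPM at 16 psu (log2 fold changes 1.31 over 0 psu and 3.30 over 16 psu). It was the single higher locus of 20 (5%) on the xenobiotic list, beside 0.664% of all genes. Its relative cyp26a1 was also highest at 8 psu but within 2-fold of 16 psu, 838 counts at 8 psu against 184 at 0 psu and 659 at 16 psu. slc22a16, a carnitine and organic cation transporter, had 303 counts at 8 psu, against 106 at 0 psu and 150 at 16 psu (log2 fold changes 1.43 over 0 psu and 1.23 over 16 psu). slc52a3-2a, of the riboflavin transporter family, had 342 counts at 8 psu, against 124 at 0 psu and 177 at 16 psu, and slc52a3-2b had 9 counts at 8 psu, against 23 at 0 psu and 17 at 16 psu, with 8 psu lowest. jag2b, a Notch ligand chosen after its values were seen, had 36 counts at 8 psu, against 5 at 0 psu and 6 at 16 psu.

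Among the 268 genes the largest difference against both outer libraries belonged to a locus without a symbol, LOC102082407, which is listed as a miscellaneous RNA and was chosen after its values were seen. It had 1497 counts at 8 psu, against 0 at 0 psu and 2 at 16 psu. With 0 replaced by 3 counts it was 490.0-fold higher at 8 psu than at 0 psu, and the counting interval of that log2 fold change began at 8.64. Over 16 psu the ratio was 899, with a counting interval on the log2 scale of 7.96 to 12.86. LOC100702363 had 280 counts at 8 psu, against 24 at 0 psu and 74 at 16 psu, and LOC102082289 had 810 counts at 8 psu, against 356 at 0 psu and 308 at 16 psu. Of the 110 higher genes 9 had 0 counts in both outer libraries, and of the 158 lower genes 21 had 0 counts at 8 psu.

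Genes near the limit show how fine the division is. Those named here had at least 100 counts, at 8 psu on the higher side and at both others on the lower side. Just inside on the higher side were LOC100691106 (smaller log2 fold change 1.04) and LOC100701293 (1.07), and just outside were cpz (0.98) and roraa (0.97), a nuclear receptor gene with 100 counts at 8 psu, against 32 at 0 psu and 57 at 16 psu. Just inside on the lower side were LOC102079297 (-1.02) and sgk1 (-1.02), and just outside were LOC102078571 (-0.97) and rab11al, which missed the limit by less than rounding to 2 decimals shows (59 counts at 8 psu, against 129 at 0 psu and 150 at 16 psu).

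Some paralogs, picked with their values known, are set side by side here. The second copy was within 1.5-fold of both outer libraries for ciartb, ldlra, pdp2, rad9a and thbs1a. It was on the same side as its partner, past 2-fold against 0 psu but not against 16 psu, for mid1ip1l and ecm1b. It lay on the opposite side for apoeb and slc52a3-2b, and between the outer libraries for col12a1. Both copies stood apart for the muscle pairs ckma with ckmb and ttn with ttn.2. Counts of duplicates rest on how the authors assigned reads that match several genes, which is not given in the sources used here.

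Position is described only, since no background number of pairs or overlaps was computed. Of the 268 genes, 216 were placed on the 22 linkage groups of the RefSeq assembly, among 14906 genes kept that were placed. All 22 groups held at least 1 of the 216. Among 14884 neighbouring pairs of kept genes, 4 were pairs in which both genes stood apart at 8 psu, and 3 of these went in the same direction: pptc7a with rad9b, zgc:162608 with LOC102079625, and LOC102077965 with LOC100709558. In 37 of the 216 genes the span overlapped that of another listed gene, fkbp5, ddit4 and slc22a16 among them. The same share over all placed genes was not computed. The gene that overlaps fkbp5 had 45 counts at 8 psu, against 34 at 0 psu and 99 at 16 psu, and the one that overlaps ddit4 had 1 at 8 psu, against 1 at 0 psu and 4 at 16 psu.

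On the lists closest to salt and water balance 1 gene stood apart. The share over all genes was 0.664% higher and 0.953% lower. Lists this short cannot show whether their share differs from it. Of 21 ion transport loci none was 2-fold apart at 8 psu in either direction. cftr, the chloride channel, had 22 counts at 8 psu, against 9 at 0 psu and 13 at 16 psu. Of 26 loci of osmolyte synthesis and volume control, 1 (3.85%), sgk1, was lower and none was higher. nfat5, the tonicity-responsive transcription factor, had 118 counts at 8 psu, against 133 at 0 psu and 124 at 16 psu. aqp12, an intracellular aquaporin, had 71 counts at 8 psu, against 202 at 0 psu and 102 at 16 psu, low at 8 psu but within 2-fold of 16 psu.

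Beside the same shares over all genes, no member stood apart among 35 endoplasmic reticulum chaperone loci, 22 heat shock, 21 interferon, 13 antigen presentation, 49 cell cycle, 26 immediate early, 34 fatty acid oxidation, 81 oxidative phosphorylation, 37 proteasome and 82 ribosomal protein loci. None of the leukocyte (17), endothelium (16), erythrocyte (11), bile duct (4), islet (3) and estrogen-responsive liver (2) loci stood apart. Of the acute phase list 1 of 28 (hamp) and of the hypoxia list 1 of 23 (ddit4) were lower. Proteasome subunits were below both outer libraries by any amount in 29 of 37 (78.4%), compared with 30.7% of all genes, with medians of -0.54 over 0 psu and -0.22 over 16 psu. Below both were also 60.7% of the skeletal muscle and 57.9% each of the glucocorticoid and lipid synthesis loci. For endoplasmic reticulum chaperone loci the share was 54.3%, and for oxidative phosphorylation loci 45.7%. psmd3, of the regulatory particle, had 580 counts at 8 psu, against 1356 at 0 psu and 1338 at 16 psu. Interferon genes were above both by any amount in 13 of 21 (61.9%), compared with 30.7% of all genes, with medians of 0.18 over 0 psu and 0.28 over 16 psu. Other lists were also above that share, with 58.8% of the leukocyte, 57.1% of the exocrine pancreas and 46.2% of the antigen presentation loci above both. rsad2, the antiviral enzyme viperin, had 607 counts at 8 psu, against 268 at 0 psu and 410 at 16 psu and was at least 2-fold above 0 psu only.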

How the data were processed

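Poly(A) RNA of 1 pooled hepatopancreas library per salinity was measured. According to the study's methods, FAST-QC served the authors for read quality, and MapSplice for alignment against the O. niloticus genome Orenil1.1. They deposited a table of raw read counts per gene, without normalization. HTSeq is named in the submitters' processing notes without its role. Strand and the treatment of multiply matching reads are not given in the sources used here. All 3 count columns were used.

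The members and gene lists were chosen with earlier results of these data known. Genes with at least 10 counts in 1 library were kept and scaled with TMM (edgeR 4.0.16, R 4.3.3). A gene stood apart when log2(CPM + 0.5) at 8 psu differed by at least 1 from both other libraries. The addition of 0.5 understates the change of low genes. For ratios zeros were replaced by 3 counts, which leaves out the counting error of the other library. Intervals (scipy 1.17.1) are exact Poisson for levels and Clopper-Pearson for fold changes, the second without the 0.5. With 1 library per salinity no test was run.

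Symbols came from a RefSeq table of the assembly O_niloticus_UMD_NMBU, which is another build, so no coordinates are given. Of 27855 locus identifiers 23652 were in the table and 13937 had a symbol. Of the 16573 genes kept 11441 had a symbol, as had 140 of the 268. Lists were matched by symbol, with or without a paralog suffix such as a or b, so loci without a symbol were missed. Named are the up to 15 symbol-bearing genes per direction with the largest smaller fold change and at least 100 counts (at 8 psu for higher genes, at both others for lower ones). Also named are all list members that stood apart, and the 2 genes nearest the limit on each side with the same count minimum. All other names, paralogs and list members that did not stand apart included, were chosen with their values known. Calculations were tested on simulated counts with large changes in well counted genes and counting error only. Changes near 2-fold or in genes of low count were not covered. Alternatives covered scaling (DESeq2 1.42.0 size factors, upper quartile, total counts), count minimum, pseudocount, fold limit and the side of comparison.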

Additional observations from a re-analysis of the deposited data

How the results depend on the processing

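No paired analysis was possible because each salinity has 1 library and the labels carry no replicate number, so no replicate could be left out either. The 110 higher and 158 lower genes depended on the pseudocount, the count minimum, the fold limit and the side of comparison. Without a pseudocount 341 genes were higher and 506 lower (share of the genes apart in 1 library 24.9%), and with 2 CPM 19 were higher and 43 lower (11.7%). A minimum of 100 counts in 1 library, with the scaling computed anew over those genes, gave 16 higher and 69 lower (15.3%), of which 14 and 69 were among the 110 and 158. A fold limit of 1.5 gave 603 higher and 574 lower (22.6%), and a limit of 4 gave 7 higher and 7 lower (8.75%). With the mean of the 0 and 16 psu libraries as one side, 238 were higher and 575 lower (26.0%). Chosen after seeing the data, 8 psu against 0 psu alone gave 733 higher and 897 lower, and against 16 psu alone 355 higher and 586 lower. A stricter rule lets fewer genes pass and a looser rule more, by construction. Why the 8 psu share and the balance of directions moved as well was not tested.

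Scaling mattered less: DESeq2 size factors gave 110 higher and 157 lower, the upper quartile 121 and 145, and total counts 131 and 135. The split moved with total counts because the median of all genes then shifted by 0.12 over 0 psu and by -0.02 over 16 psu. sgk1, the single osmolyte locus, left the lower genes with the upper quartile and with total counts. The circadian list held 1 lower locus with total counts and 0 with 2 CPM added. With 2 CPM added the muscle list held 2, the acute phase list 0 and the matrix list 1 higher locus. Without a pseudocount lower loci numbered 5 on the glucocorticoid list, 5 on the glucose list, 4 on the lipid synthesis list and 2 on the hypoxia list. For the 40 genes named by rule, no log2 fold change changed sign under these scalings or pseudocounts, and other named genes were not recomputed. That outcome was largely fixed in advance. The genes were picked as at least 2-fold apart, and an equal addition to both levels keeps the sign. Of 398 recomputed values 46 lay outside the gene's counting interval, and with 2 CPM added 26 of 80 did. These counts do not measure processing alone, because the intervals leave out the 0.5 that the main values hold. For neb over 16 psu the main value, -2.47, already lay outside its interval, which ended at -3.03. With DESeq2 size factors 4 values lay outside, though no value moved by more than 0.003. Depth limits the lower end: the 3 counts put in place of 0 for ratios equal 0.215 CPM at 8 psu, compared with 0.219 CPM at 0 psu and 0.179 CPM at 16 psu.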
